A study of Mus musculus with 12 samples.

Results

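The genes described here are 9 genes of the integrated stress response, chosen by name with earlier results of these data known: Atf4, Ddit3, Trib3, Chac1, Asns, Slc7a11, Phgdh, Psat1 and Mthfd2. They are 9 of 55266 annotated genes to which the deposited transcript counts were summed, and all 9 were among the 19384 genes with enough counts to be tested. RNA came from mouse E14 embryonic stem cells with the genotype 2C::3xtbGFP, a fluorescent reporter of the 2-cell-like state, which a small share of these cells enters. Cells spent 0, 6 or 24 h in sorbitol, a sugar alcohol that raises the osmolarity of the medium, and FACS split them by tbGFP, positive or negative. Each of the 6 groups has 2 libraries, 12 in all. Every group carried the reporter, grew in medium with serum, LIF and non-essential amino acids, and had been plated without the kinase inhibitors CHIR99021 and PD0325901 used for expansion. The labels give 1 culture period for all groups and do not say whether the hours in sorbitol fall within it. The sorbitol dose, the promoter behind the reporter and whether the line is 1 clone are not given in the sources used here. Nothing says that replicates 1 and 2 came from separate cultures, so p-values measure the spread between these libraries, which may be technical.

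The integrated stress response starts when a kinase phosphorylates the translation factor eIF2alpha, which lowers protein synthesis in general while the mRNA of the transcription factor ATF4 is translated more. ATF4, with C/EBP-family partners, switches on genes that import and make amino acids, charge tRNAs, make serine and run the folate cycle of mitochondria. Since ATF4 is controlled largely at translation, the level of its mRNA is a poor guide to its activity.

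The clearest change was in tbGFP-negative cells at 24 h. In them 6 of the 9 genes were lower than at 0 h, namely Chac1, Slc7a11, Phgdh, Psat1, Trib3 and Mthfd2, with log2 fold changes from -4.42 to -1.59, and none was higher. Of all genes tested, 1.29% were lower and 2.7% higher there. The call of Slc7a11 was lost in 10 of 21 other settings, and the rest of the 6 were kept in all 21. At 6 h in these cells only Chac1 passed the test, as lower, and the other 8 genes did not pass. That call was lost in 2 of 21 other settings, and 1.21% of all genes were lower there. In tbGFP-positive cells Chac1 was also lower at 24 h than at 0 h, a call lost in 6 of 21 other settings. At 24 h Phgdh stood 2.62-fold higher in tbGFP-positive than in tbGFP-negative cells, a call kept in all 21. Atf4, Ddit3 and Asns did not pass the test in any of the 9 comparisons between groups. Levels are in CPM, read counts scaled to the TMM-adjusted size of each library, and a gene was called at an adjusted p under 0.05 in edgeR's quasi-likelihood test fitted over all genes.

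Promoters of 5 of the 6 genes that fell in tbGFP-negative cells at 24 h are shown because ATF4 with a C/EBP partner binds an element with the core TGATGNAA. The sequences are the 250 bases before the RefSeq start site in GRCm38.p6, written 5′ to 3′ on the gene's strand. They lie at chr2:119350992-119351241 on the plus strand for Chac1, and on the minus strand at chr3:50443614-50443863 for Slc7a11, chr2:152344061-152344310 for Trib3, chr19:15925060-15925309 for Psat1 and chr3:98339970-98340219 for Phgdh. Capitals mark matches to TGATGNAA, or to TGNNGCAA, on either strand.
Chac1: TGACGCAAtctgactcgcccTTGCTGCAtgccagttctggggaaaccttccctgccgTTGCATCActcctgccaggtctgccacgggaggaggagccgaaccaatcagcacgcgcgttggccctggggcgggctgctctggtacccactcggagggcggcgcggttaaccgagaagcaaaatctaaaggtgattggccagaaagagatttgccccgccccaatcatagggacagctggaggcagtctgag
Slc7a11: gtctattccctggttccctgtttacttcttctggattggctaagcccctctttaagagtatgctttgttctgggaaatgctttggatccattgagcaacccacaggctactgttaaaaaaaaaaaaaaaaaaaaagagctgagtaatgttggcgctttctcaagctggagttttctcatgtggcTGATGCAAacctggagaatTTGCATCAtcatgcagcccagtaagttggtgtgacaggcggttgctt
Trib3: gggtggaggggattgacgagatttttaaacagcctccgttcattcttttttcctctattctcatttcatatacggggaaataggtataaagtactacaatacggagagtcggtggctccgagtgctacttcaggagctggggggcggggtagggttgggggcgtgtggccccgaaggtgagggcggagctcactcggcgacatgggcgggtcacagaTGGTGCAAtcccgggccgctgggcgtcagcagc
Psat1: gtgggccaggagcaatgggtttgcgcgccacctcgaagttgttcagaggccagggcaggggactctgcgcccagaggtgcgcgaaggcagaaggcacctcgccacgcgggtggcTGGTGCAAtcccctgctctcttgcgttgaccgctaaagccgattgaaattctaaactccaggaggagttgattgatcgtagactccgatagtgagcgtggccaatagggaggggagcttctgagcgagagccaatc
Phgdh: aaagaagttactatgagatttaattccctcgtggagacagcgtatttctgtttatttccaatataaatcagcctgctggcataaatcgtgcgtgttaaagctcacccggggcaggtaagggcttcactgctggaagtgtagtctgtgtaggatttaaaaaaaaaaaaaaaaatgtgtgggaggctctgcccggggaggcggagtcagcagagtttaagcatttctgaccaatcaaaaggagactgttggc

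TGATGNAA or its reverse complement TTNCATCA was present before the start of 3 of the 9 genes, and in 1134 of 32851 RefSeq promoter windows of this length (3.45%). Slc7a11 held TGATGCAA starting 66 bases and TTGCATCA starting 47 bases before its start. Chac1 held TTGCATCA starting 193 bases before its start, and Asns, not printed, held TGATGAAA starting 23 bases before its start. The narrower TGATGCAA, on either strand, was present in 2 of the 9 genes, Chac1 and Slc7a11, and in 0.791% of all windows. A looser search for TGNNGCAA (reverse complement TTGCNNCA), which contains TGATGCAA and was chosen after the promoters were read, added TGGTGCAA starting 33 bases before Trib3 and 136 bases before Psat1, in the printed one of its 2 start sites. Chac1 also held TGACGCAA and TTGCTGCA under that search. It matched 4 of the 9 genes and 9.59% of all windows. Phgdh, Mthfd2, Ddit3 and Atf4 held neither pattern in these windows. A match describes letters only and is not a site of binding.

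Libraries held 2306870 to 7900178 counts, and 3 counts corresponded to 0.31 to 1.12 CPM. The 10 embryonic stem cell markers, among them Pou5f1, Sox2 and Nanog, summed to between 7400 and 10700 CPM in every library. Dppa5a alone had group means of 3720 to 5480 CPM, and the sum hides changes in both directions. In tbGFP-negative cells at 24 h against 0 h, 2 of the 10 were called higher and 1 lower (2.7% and 1.29% of all genes). Mean Pou5f1 there went from 1290 to 679 CPM and mean Sox2 from 441 to 711 CPM. The 15 markers of the 2-cell program, such as the Zscan4 genes, summed to between 38100 and 64100 CPM in tbGFP-positive libraries. In tbGFP-negative cells they summed to between 18.7 and 39.6 CPM at 0 h (6 of 15 with counts in each library), 62.6 and 77.7 CPM at 6 h, and 880 and 936 CPM at 24 h (13 and 14 of 15). At 24 h against 0 h, 10 of the 14 that were tested rose in the tbGFP-negative cells, in which 6 of the 9 genes fell, and their part in that fall was not tested. In sorted bulk RNA, fewer cells of a type and less RNA per cell cannot be told apart. The tbGFP-positive libraries at 6 h stood apart: they detected the fewest genes, 17545 and 17445 against 18600 to 26069 in the others, and their 2 replicates differed most beyond sampling noise. No gene is a deletion target here, so the labels were checked on the reporter's program alone.

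The counts of the 9 genes do not all come from their coding transcripts. The deposited files count reads per transcript, and transcripts without an exon base of their own almost never held a count (21 of 35033, or 0.0599%), against 63.3% of transcripts with such bases. A gene's sum here therefore rests on the bases that only 1 of its transcripts holds. Chac1 has a single transcript of 1637 bases and all 2412 of its counts lay on it. Coding transcripts held 99.8% of the 15817 counts of Phgdh, 99.5% of 4053 for Trib3, 98% of 6492 for Mthfd2, 97.6% of 413 for Slc7a11 and 92% of 2566 for Psat1. Asns had 164 counts, of which 115 lay on Asns-205, a short coding transcript with 71 bases of its own. Atf4 had 245 counts and Ddit3 583, and a retained-intron transcript held 80.4% of the first (Atf4-203) and 82.5% of the second (Ddit3-202). The values of Atf4 and Ddit3 below are therefore mostly counts on those retained-intron transcripts, at low depth. The same 2 transcripts hold most of the bases that only 1 transcript has, 633 of 872 for Atf4 and 823 of 984 for Ddit3. Their share of counts therefore does not measure how much of the RNA retains an intron. The coding transcript Atf4-201 had 4, 20 and 2 counts in tbGFP-negative cells at 0, 6 and 24 h, where Atf4-203 had 38, 20 and 58. The coding transcript Ddit3-201 had 9, 35 and 4 counts in the same groups, where Ddit3-202 had 43, 73 and 71. These are raw counts, not scaled to library size. For Atf4 the coding transcript was highest at 6 h, where Atf4-203 was lowest, and the sum per gene hides this. For Ddit3 the coding transcript and the sum per gene were both highest at 6 h. The order of the coding transcripts over time was not tested. The counts behaved as if strands had not been separated: of 419 transcripts whose own bases are covered on the opposite strand, 2.86% had counts, against 77.4% of those with own bases on both strands. Reads from overlapping antisense genes are therefore included or lost without distinction.

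**Figure D1:**
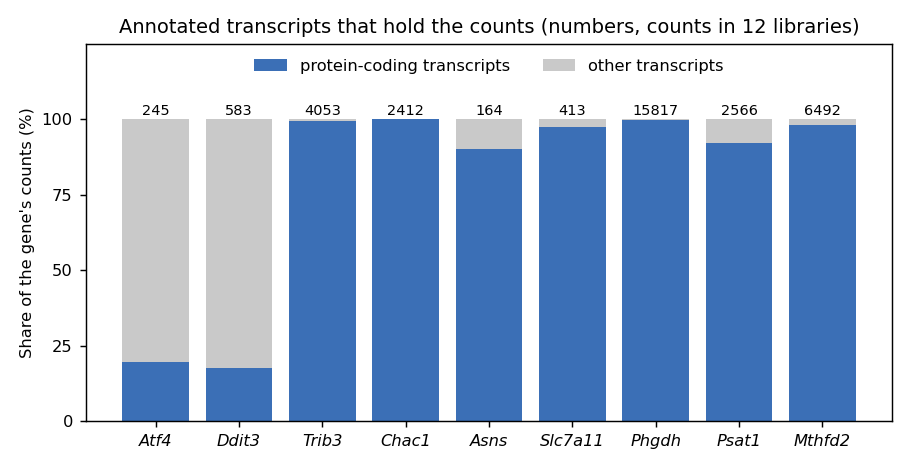
Share of each gene's counts, in percent over the 12 libraries, on protein-coding and on other annotated transcripts, with the total count above each bar. Atf4 and Ddit3 stand apart, with 19.6% and 17.5% of counts on coding transcripts, and the other 7 genes have 90.2% or more.

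The first question was how the transcription factor and its regulators stood. Atf4 encodes the factor itself. Atf4 in tbGFP-negative cells read 2.61 and 3.98 CPM at 0 h, then 3.35 and 4.16 CPM at 6 h, then 3.83 and 2.92 CPM at 24 h. Atf4 in tbGFP-positive cells read 2.49 and 0.494 CPM at 0 h, then 2.41 and 3.55 CPM at 6 h, then 5.32 and 3.68 CPM at 24 h. The groups overlapped in tbGFP-negative cells, and in tbGFP-positive cells both libraries at 24 h lay above both at 0 h. That difference did not pass the test (adjusted p = 0.654). An approximate 95% interval of the log2 fold change, from the SE and a normal quantile, was -0.21 to 3.31, with 15 counts in the group at 0 h. With so few libraries this interval may be too narrow.

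Ddit3 encodes CHOP, a C/EBP-family factor that ATF4 induces and that is tied to cell death under prolonged stress. Ddit3 in tbGFP-negative cells read 5.23 and 4.32 CPM at 0 h, then 10.1 and 9.98 CPM at 6 h, then 4.65 and 3.81 CPM at 24 h. Ddit3 in tbGFP-positive cells read 6.32 and 9.88 CPM at 0 h, then 38.6 and 9.65 CPM at 6 h, then 6.03 and 6.63 CPM at 24 h. Both tbGFP-negative libraries at 6 h lay above the other 4 of that fraction, but the difference from 0 h did not pass (adjusted p = 0.412), nor did that of 24 h from 6 h (adjusted p = 0.267). The high mean of tbGFP-positive cells at 6 h came from replicate 1 alone, and the log2 difference from 0 h of 1.56 ± 0.61 (SE, n = 2 per group) had an adjusted p of 0.133. It was 0.16 at the lowest and 2.18 at the highest over 20 other settings, with adjusted p from 0.00216 to 0.857.

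Trib3 encodes a pseudokinase that ATF4 and CHOP induce and that feeds back on ATF4. Trib3 in tbGFP-negative cells read 95.2 and 118 CPM at 0 h, then 63.1 and 81.1 CPM at 6 h, then 31.8 and 26.5 CPM at 24 h. Trib3 in tbGFP-positive cells read 75.1 and 50.7 CPM at 0 h, then 50.1 and 29.8 CPM at 6 h, then 38.0 and 43.3 CPM at 24 h. In the tbGFP-negative cells the 3 times did not overlap and descended in order. Trib3 fell between 0 and 24 h in these cells by 1.87 ± 0.29 on the log2 scale (SE, n = 2 per group, adjusted p = 0.00128). The fall from 6 to 24 h was 1.30 ± 0.29 (log2 fold change -1.3, adjusted p = 0.0113). That second call was lost without tbGFP-negative replicate 2 at 6 h (adjusted p = 0.113), without replicate 1 (0.0614) or replicate 2 (0.119) at 24 h, and with library totals as the scaling (0.0742), within a range of 4.66e-07 to 0.119. In tbGFP-positive cells the log2 difference between 24 h and 0 h, -0.63 ± 0.29, did not pass (adjusted p = 0.505).

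The next genes act on amino acids and glutathione. Chac1 encodes an enzyme that breaks down glutathione inside the cell and is among the genes most sensitive to ATF4. Chac1 in tbGFP-negative cells read 121 and 96.4 CPM at 0 h, then 19.8 and 20.4 CPM at 6 h, then 6.31 and 3.68 CPM at 24 h. Chac1 in tbGFP-positive cells read 64.0 and 44.0 CPM at 0 h, then 45.3 and 19.1 CPM at 6 h, then 8.52 and 13.1 CPM at 24 h. Within tbGFP-negative cells no time overlapped another, and in tbGFP-positive cells the 24 h libraries lay below all 4 others.

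Chac1 was the one gene of the 9 that was called in tbGFP-negative cells at 6 h against 0 h. It was 5.39-fold lower at 6 h (log2 fold change -2.43 ± 0.40 SE, n = 2 per group, adjusted p = 0.00295). Without replicate 1 of that group at 6 h the adjusted p was 0.0606, and without replicate 2 it was 0.0504, within a range of 1.9e-16 to 0.0606. By 24 h Chac1 was 21.4-fold lower than at 0 h (-4.42 ± 0.44, adjusted p = 2.3e-05), a call kept in all 21 other settings. It was 3.98-fold lower at 24 h than at 6 h (-1.99 ± 0.42, adjusted p = 0.00784), which was lost without tbGFP-negative replicate 2 at 6 h (0.0515) or at 24 h (0.108). In tbGFP-positive cells Chac1 was 4.97-fold lower at 24 h than at 0 h (-2.31 ± 0.41, adjusted p = 0.0193). This call was lost in 6 of 21 settings, namely without either tbGFP-negative replicate at 0 h (adjusted p = 0.057 and 0.054), either tbGFP-positive replicate at 0 h (0.0976 and 0.0804) or either at 24 h (0.472 and 0.0993), with values from 1.35e-08 to 0.472. In the same cells it was 2.92-fold lower at 24 h than at 6 h (-1.55 ± 0.41, adjusted p = 0.0308), a call lost in 8 of 20 settings (adjusted p from 0.000214 to 0.299), which were only the groups compared, without any 1 of the tbGFP-negative libraries at 0 or 6 h, without tbGFP-positive replicate 1 at 6 h, and without either tbGFP-positive library at 24 h. The difference between the 2 fractions in their change from 0 to 24 h, 2.11 ± 0.57 on the log2 scale, did not pass (adjusted p = 0.155).

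Asns encodes asparagine synthetase, a classic ATF4 target. Asns in tbGFP-negative cells read 4.11 and 2.16 CPM at 0 h, then 1.01 and 4.16 CPM at 6 h, then 3.93 and 2.66 CPM at 24 h. Asns in tbGFP-positive cells read 1.15 and 3.21 CPM at 0 h, then 0.302 and 0 CPM at 6 h, then 0.532 and 3.83 CPM at 24 h. The only group set apart was tbGFP-positive cells at 6 h, with 1 count in its 2 libraries. Against it, the 26 counts of tbGFP-negative cells at 6 h gave a ratio of 25 (95% counting interval 4.11 to 1030, exact), and the test did not pass (adjusted p = 0.0969). It passed in 1 of 18 other settings, without tbGFP-positive replicate 1 at 6 h, with adjusted p from 0.0301 to 0.401. The interval covers counting error only, and 76.8% of all counts between 2 and 11 were even numbers, so counts may not be independent. Within tbGFP-positive cells, the 19 counts at 0 h gave a ratio of 21.2 to the 1 count at 6 h (95% counting interval 3.38 to 883, adjusted p = 0.144), and the 29 counts at 24 h a ratio of 24.2 (4.01 to 988, adjusted p = 0.122). Each passed in 1 of 18 other settings, without tbGFP-positive replicate 1 at 6 h (adjusted p = 0.0381 and 0.0368).

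Slc7a11 encodes xCT, the exchanger that imports cystine for glutathione synthesis. Slc7a11 in tbGFP-negative cells read 13.4 and 7.84 CPM at 0 h, then 8.55 and 6.65 CPM at 6 h, then 1.45 and 2.16 CPM at 24 h. Slc7a11 in tbGFP-positive cells read 4.02 and 3.71 CPM at 0 h, then 19.0 and 7.94 CPM at 6 h, then 2.48 and 3.68 CPM at 24 h. The tbGFP-negative libraries at 24 h lay below the other 4 of that fraction, and the tbGFP-positive libraries at 6 h above the other 4 of theirs. Slc7a11 was 5.8-fold lower at 24 h than at 0 h in tbGFP-negative cells (log2 fold change -2.54 ± 0.67 SE, n = 2 per group, adjusted p = 0.0462). That call was lost in 10 of 21 settings, with adjusted p of 0.0553 under library totals, 0.343 and 0.0965 without replicate 1 or 2 of tbGFP-negative cells at 0 h, 0.0668 and 0.0639 without those at 6 h, 0.346 and 0.19 without those at 24 h, and 0.0746 and 0.0623 without those of tbGFP-positive cells at 24 h. With the replicate number as a block it was 0.0716. In tbGFP-positive cells the log2 differences of 6 h from 0 h, 1.78 ± 0.65, and of 24 h from 6 h, -2.10 ± 0.65, had adjusted p of 0.113 and 0.0583.

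Phgdh, Psat1 and Mthfd2 make serine and use it. Phgdh encodes the first and committing enzyme of serine synthesis. Phgdh in tbGFP-negative cells read 241 and 246 CPM at 0 h, then 278 and 298 CPM at 6 h, then 66.9 and 65.1 CPM at 24 h. Phgdh in tbGFP-positive cells read 444 and 222 CPM at 0 h, then 290 and 346 CPM at 6 h, then 181 and 165 CPM at 24 h. The tbGFP-negative replicates lay close to each other at every time, and those at 24 h lay far below the rest.

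Phgdh fell 3.68-fold between 0 and 24 h in tbGFP-negative cells (log2 fold change -1.88 ± 0.25 SE, n = 2 per group, adjusted p = 0.000288) and 4.36-fold between 6 and 24 h (-2.13 ± 0.25, adjusted p = 0.000103). Both calls were kept in all 21 other settings. In tbGFP-positive cells the fall from 6 to 24 h was 1.84-fold (-0.88 ± 0.24, adjusted p = 0.0382), a call lost in 10 of 20 settings, among them without any 1 of the tbGFP-negative libraries (adjusted p from 0.066 to 0.0831), without tbGFP-positive replicate 2 at 6 h (0.0566), or without replicate 1 (0.163) or 2 (0.217) at 24 h. The log2 difference from 0 h in these cells, -0.94 ± 0.24, did not pass (adjusted p = 0.125), and at 0 h the 2 tbGFP-positive libraries were far apart. At 24 h Phgdh was higher in tbGFP-positive than in tbGFP-negative cells, at 173 ± 11.3 against 66.0 ± 1.29 CPM (mean ± SD, n = 2 each), which is a log2 difference of 1.39 ± 0.25 (SE, adjusted p = 0.00155) kept in all 21 other settings. The change of the gap between fractions from 0 to 24 h, 0.94 ± 0.34, did not pass (adjusted p = 0.58).

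Psat1 encodes the aminotransferase of the second step of serine synthesis. Psat1 in tbGFP-negative cells read 48.5 and 57.4 CPM at 0 h, then 63.9 and 53.6 CPM at 6 h, then 17.9 and 10.9 CPM at 24 h. Psat1 in tbGFP-positive cells read 43.7 and 44.7 CPM at 0 h, then 32.3 and 39.3 CPM at 6 h, then 15.1 and 22.8 CPM at 24 h. Within each fraction the 24 h libraries lay below the other 4. In tbGFP-negative cells Psat1 fell 3.67-fold from 0 h (log2 fold change -1.88 ± 0.31 SE, n = 2 per group, adjusted p = 0.00222) and 4.07-fold from 6 h (-2.02 ± 0.31, adjusted p = 0.000905), both kept in all 21 other settings. In tbGFP-positive cells the log2 difference of 24 h from 0 h, -1.22 ± 0.31, and from 6 h, -0.92 ± 0.31, had adjusted p of 0.122 and 0.0783.

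Mthfd2 encodes a mitochondrial enzyme of the folate cycle, which carries the one-carbon unit that serine gives up. Mthfd2 in tbGFP-negative cells read 109 and 112 CPM at 0 h, then 139 and 134 CPM at 6 h, then 35.0 and 38.3 CPM at 24 h. Mthfd2 in tbGFP-positive cells read 101 and 121 CPM at 0 h, then 165 and 111 CPM at 6 h, then 57.5 and 64.6 CPM at 24 h. In both fractions the 24 h libraries lay below the other 4, and at 24 h both tbGFP-positive libraries lay above both tbGFP-negative ones. Mthfd2 fell 3.02-fold from 0 h in tbGFP-negative cells (log2 fold change -1.59 ± 0.22 SE, n = 2 per group, adjusted p = 0.000416) and 3.72-fold from 6 h (-1.90 ± 0.22, adjusted p = 8.95e-05), both kept in all 21 other settings. In tbGFP-positive cells it fell 2.25-fold from 6 to 24 h (-1.17 ± 0.22, adjusted p = 0.00614), which was lost without replicate 1 at 24 h (0.0813) and when only the 2 groups compared were fitted (0.217). The log2 difference between fractions at 24 h, 0.74 ± 0.22, did not pass (adjusted p = 0.0678), and passed in 9 of 21 other settings.

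**Figure D2:**
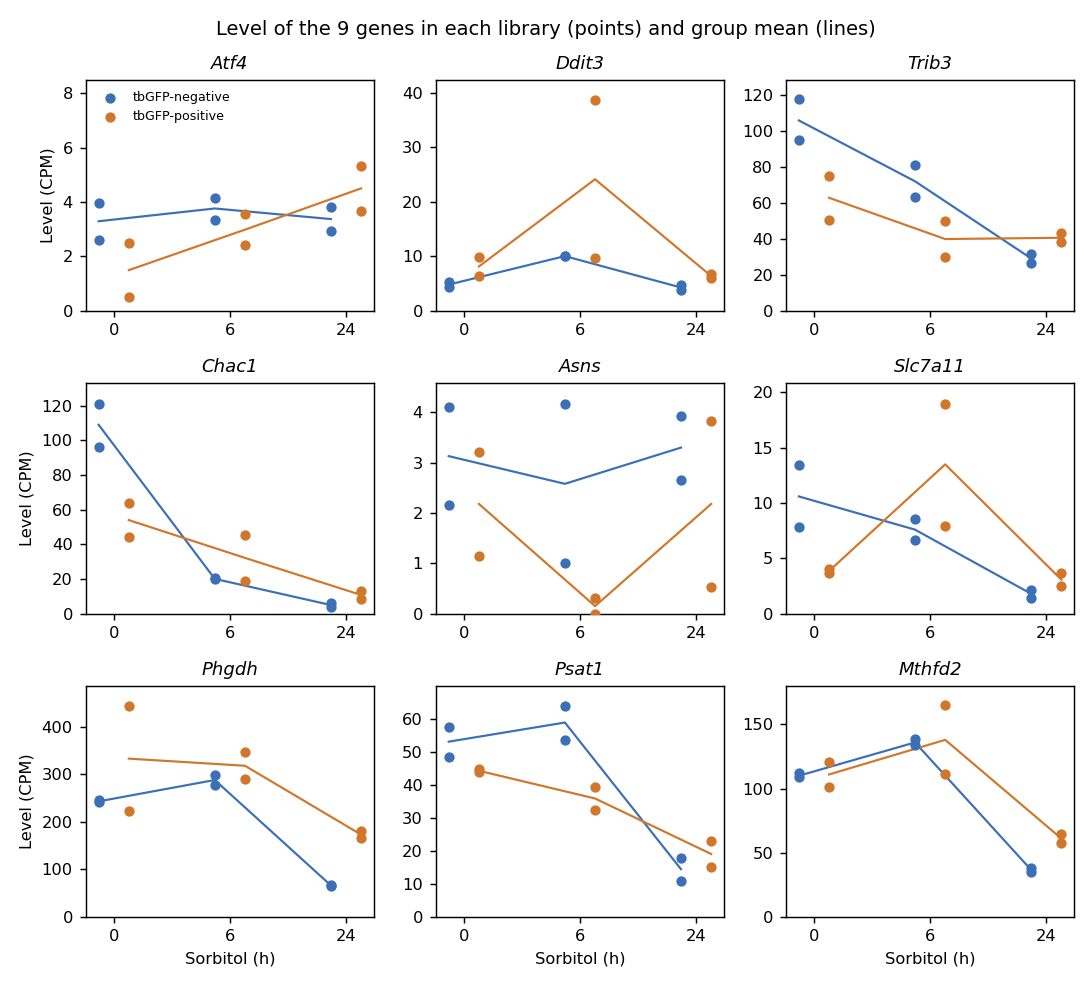
Level of each of the 9 genes in CPM (vertical axis from 0) against hours in sorbitol, with 1 point per library and lines through the means of the 2 replicates. In tbGFP-negative cells Chac1 went from 121 and 96.4 to 6.31 and 3.68 CPM, and Phgdh at 24 h was 66.9 and 65.1 CPM against 181 and 165 CPM in tbGFP-positive cells.

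Counted over the 9 genes and set beside all genes tested, most calls came from tbGFP-negative cells at 24 h. Shares of all genes, here and below, are for adjusted p in edgeR's test over all 12 libraries. They do not apply to counts from other settings, in which the number of all genes called moved too. Against 0 h, 6 of the 9 were lower and 0 higher, where 1.29% of all genes were lower and 2.7% higher, and the median log2 fold change was -1.87 for the 9 and 0.23 for all genes. The 9 were chosen with earlier results of these data known, so such contrasts describe them and do not test an excess. Against 6 h, 5 of the 9 were lower and 0 higher, where 4.3% of all genes were lower and 3.62% higher, with medians of -1.90 and 0.16. The count against 6 h was 3 without tbGFP-negative replicate 2 at 6 h or at 24 h, and 7 (Ddit3 and Slc7a11 added) when 1 of the 6 h tbGFP-positive libraries was left out. At 6 h against 0 h, 1 of the 9 was lower and 0 higher, where 1.21% of all genes were lower and 3.22% higher. DESeq2 called 6, 6 and 1 in these 3 comparisons, all lower.

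In tbGFP-positive cells fewer of the 9 were called. At 24 h against 0 h, 1 of the 9 was lower and 0 higher, where 0.248% of all genes were lower and 0.304% higher. By unadjusted p, 5 of the 9 were under 0.05, all lower. No share of all genes is given for unadjusted p, here or below, so those counts cannot be set against one. Chac1, Mthfd2, Phgdh and Psat1 were called once 1 or both of the tbGFP-positive libraries at 6 h, which are not part of this comparison, were left out. More of all genes were called without replicate 1 at 6 h than in any other setting. DESeq2 called the same 4, and of 9613 genes it called 292 lower and 204 higher. Chac1 gave way to Phgdh as the 1 called without tbGFP-positive replicate 2 at 0 h, and 0 were called without its replicate 1, without either library of that fraction at 24 h or without either tbGFP-negative library at 0 h. At 24 h against 6 h, 3 of the 9 were lower and 0 higher, where 2.9% of all genes were lower and 5.91% higher. The count was 6 with DESeq2, 1 without either tbGFP-negative library at 0 or 6 h or without tbGFP-positive replicate 2 at 24 h, and 0 without replicate 1 at 24 h. At 6 h against 0 h, 0 of the 9 were called by edgeR, where 3.76% of all genes were lower and 2.14% higher. There 4 had an unadjusted p under 0.05, and DESeq2 called 1, Slc7a11, as higher. Without tbGFP-positive replicate 1 at 6 h, Asns, Chac1 and Trib3 were called lower, and without replicate 2, Ddit3 and Slc7a11 were called higher. Which genes were called at 6 h, and in which direction, thus depended on the library left out. Each of these fits had 1 library in that group, and without replicate 1 more of all genes were called than in any other setting.

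**Figure D3:**
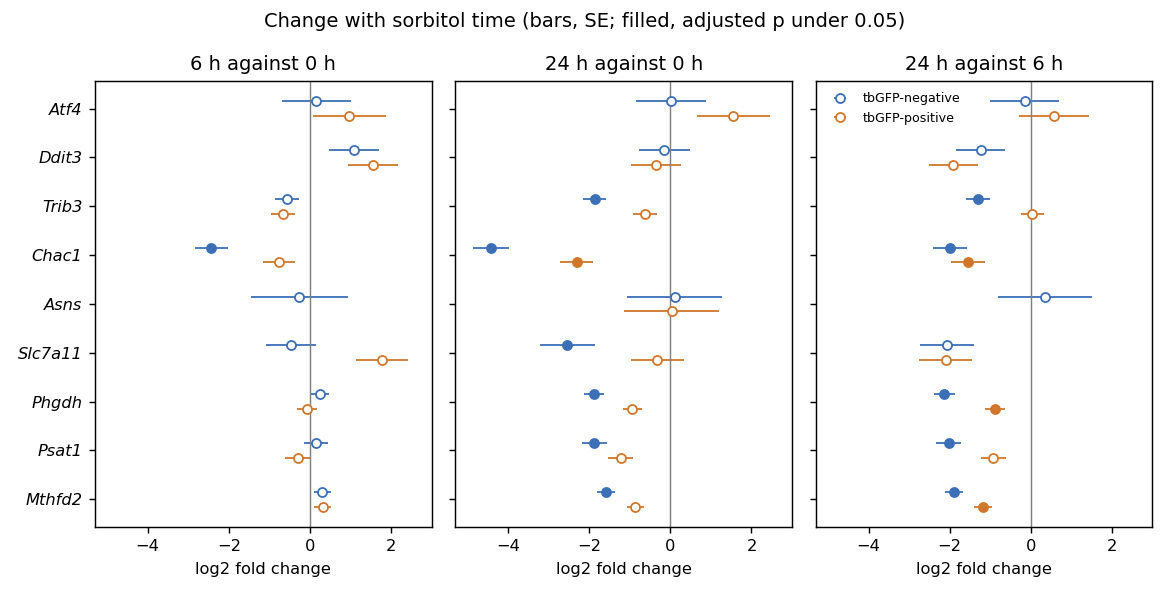
Log2 fold change (horizontal axis) with its standard error for each of the 9 genes, in tbGFP-negative and tbGFP-positive cells, for 3 comparisons of time in sorbitol. Filled points passed at an adjusted p under 0.05, and Asns is left out for tbGFP-positive cells where the comparison uses the 6 h libraries, which hold 1 count. In tbGFP-negative cells 1, 6 and 5 of the 9 points are filled, all below 0.

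The 2 fractions were compared at each time. These comparisons share samples with those over time, so they are not independent of them. At 0 h, 0 of the 9 were called, where the share of all genes called was 6.66% higher in the tbGFP-positive fraction and 0.449% lower. By unadjusted p, 3 were under 0.05, namely Trib3, Chac1 and Slc7a11, all lower in tbGFP-positive cells, and DESeq2 called 0. The share of all genes at that unadjusted threshold is not given. Chac1 stood at 54.0 ± 14.1 against 109 ± 17.1 CPM there (mean ± SD, n = 2 each, log2 difference -1 ± 0.38 SE, adjusted p = 0.169). Chac1 and Trib3 were both called lower at 0 h with either other scaling, or once 1 of the tbGFP-positive libraries at 6 h was left out. Of 19384 genes, upper-quartile factors called 620 lower and library totals 812, against 87 with TMM. Phgdh alone was called, as higher, without tbGFP-positive replicate 2 at 0 h. At 6 h, 0 of the 9 were called, where 6.92% of all genes were higher and 5.22% lower, 3 had an unadjusted p under 0.05 and DESeq2 called 0. Without tbGFP-positive replicate 1 at 6 h, Asns and Trib3 were called lower, and without replicate 2, Chac1 and Ddit3 were called higher and Psat1 lower. Each of these fits had 1 library in that group. Without replicate 2 more of all genes were called than in any other setting, so these calls are no result about the 9. Trib3 was also called lower without tbGFP-positive replicate 2 at 0 h. At 24 h, 1 of the 9, Phgdh, was higher and 0 lower, where 5.35% of all genes were higher and 0.113% lower. DESeq2 called 2. With 1 or both of the 6 h tbGFP-positive libraries left out, 3 were higher in tbGFP-positive cells (Chac1, Mthfd2 and Phgdh), and with either of the 0 h ones left out, 2 were (Mthfd2 and Phgdh).

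Whether the fractions changed by different amounts was tested as the change of their gap. From 0 to 6 h, 0 of the 9 passed, where 0.17% of all genes passed in either direction, 2 had an unadjusted p under 0.05 and DESeq2 called 0. Over 20 other settings the log2 change of the gap was 0.88 to 2.13 for Chac1 and 1.42 to 2.69 for Slc7a11. Both passed only without tbGFP-positive replicate 2 at 6 h, a fit with 1 library in that group. More of all genes passed in that fit than in any other setting, so this is no result about the 9. From 0 to 24 h, 0 of the 9 passed, where 0.97% of all genes did, 5 had an unadjusted p under 0.05 and DESeq2 called 1, Chac1. Those 5 were Trib3, Chac1, Slc7a11, Phgdh and Mthfd2, each with the smaller fall in tbGFP-positive cells, and their log2 values ran from 0.74 to 2.21. The share of all genes under that unadjusted threshold is not given. Chac1 and Trib3 passed once 1 or both of the tbGFP-positive 6 h libraries were left out, and Phgdh passed without tbGFP-positive replicate 1 at 0 h. With no filter on low counts, Chac1 and Phgdh passed.

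Other genes of the pathway, in 8 lists, did not all move with the 9. The lists are not fully separate: Psph, Shmt2, Mthfd1l and Aldh1l2 stand both among the other ATF4 target enzymes and among the one-carbon enzymes. Of all genes tested in tbGFP-negative cells, 3.22% were higher and 1.21% lower at 6 h against 0 h. The shares higher and lower were 2.7% and 1.29% at 24 h against 0 h, and 3.62% and 4.3% at 24 h against 6 h. The list of partners of ATF4 and other factors of the response holds 10 genes. Of these, 5 were tested, and 3 of them rose in tbGFP-negative cells at 6 h, when 0 of the 9 were called higher. Ddit4, which restrains mTORC1, rose from 118 ± 3.76 to 655 ± 43.7 CPM (mean ± SD, n = 2 each, log2 fold change 2.47 ± 0.30 SE, adjusted p = 0.000236). Sesn2, another restrainer of mTORC1, and Nfe2l2, which encodes the antioxidant factor NRF2, rose by 1.96 and 0.69 on the log2 scale. At 24 h all 3 were lower than at 6 h, Sesn2 by most, from 1990 ± 338 to 353 ± 3.35 CPM (log2 fold change -2.49 ± 0.43, adjusted p = 0.00393). Genes beyond the one with the greatest change in each direction of a list are named because the counts are small, and were chosen after their values were seen. The count at 6 h was 1 to 4 over the other settings. Ddit4 was also higher in tbGFP-positive than in tbGFP-negative cells, at 384 ± 135 against 118 ± 3.76 CPM at 0 h (log2 difference 1.71 ± 0.29, adjusted p = 0.000949).

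Amino acid transporters went both ways at 6 h. Of 8 tested in tbGFP-negative cells, Slc38a2, the SNAT2 carrier known to respond to amino acid lack and to high osmolarity, rose from 1010 ± 93.8 to 3650 ± 159 CPM (log2 fold change 1.86 ± 0.17, adjusted p = 1.91e-05). It rose in tbGFP-positive cells as well, from 624 ± 98.6 to 2110 ± 514 CPM (1.76 ± 0.17, adjusted p = 8.81e-05). Slc1a5, a glutamine carrier, fell in tbGFP-negative cells from 11.6 ± 1.59 to 0.939 ± 0.142 CPM, the latter on 10 counts (-3.60 ± 0.72, adjusted p = 0.00922). Over the other settings 1 to 5 of the 8 were called in tbGFP-negative cells at 6 h. By 24 h in these cells 2 of 8 were lower than at 0 h and 0 higher (1 to 6 called over the other settings), with Slc7a1, a carrier of cationic amino acids, down from 534 ± 0.0291 to 203 ± 35.6 CPM (-1.40 ± 0.18, adjusted p = 0.000181).

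Aminoacyl-tRNA synthetases charge tRNAs with amino acids. In tbGFP-negative cells at 24 h, 3 of 11 tested were lower than at 0 h, 0 were higher and 8 did not pass, with 3 to 6 called over the other settings, and 5 of 11 were lower than at 6 h. The list's median log2 fold change against 0 h was -1.08. Aars, the alanine enzyme, fell from 1020 ± 22.7 to 346 ± 34.1 CPM (log2 fold change -1.56 ± 0.16, adjusted p = 3.48e-05), and Yars and Gars by 1.23 and 1.11 on the log2 scale. In tbGFP-positive cells Aars also fell from 0 to 24 h, from 1040 ± 219 to 545 ± 10.6 CPM (-0.93 ± 0.16, adjusted p = 0.0173). In these cells at 6 h against 0 h, Lars was called lower and Wars higher, each with 0 counts in 1 of the groups. The leucine enzyme gene Lars had 24 counts in tbGFP-negative cells and 0 in tbGFP-positive cells at 6 h, which is at least 7.7-fold lower when the latter group is set to 3 counts in sum. As for Asns, counts may not be independent, so this bound may be too high.

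Of 18 other ATF4 target enzymes and secreted factors tested, 2 were lower at 24 h than at 0 h in tbGFP-negative cells and 0 higher, at a list median of -1.21, and 0 to 7 were called over the other settings. Gpt2, which makes alanine, fell from 242 ± 6.48 to 39.9 ± 1.18 CPM (log2 fold change -2.60 ± 0.47, adjusted p = 0.00464), and Cth, which makes cysteine, by 1.06 on the log2 scale. At 6 h, 1 of the 18 was called, Pck2, which fell from 17.3 ± 2.75 to 1.61 ± 0.374 CPM (-3.42 ± 0.87, adjusted p = 0.0354), and 0 to 7 were called there over the other settings.

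Among the other enzymes of serine, glycine and folate metabolism, 18 were tested. Of these, 0 were called at 24 h against 0 h in tbGFP-negative cells by edgeR, 3 had an unadjusted p under 0.05 and DESeq2 called 2, all lower, and 0 to 6 were called over all other settings. The list's median log2 fold change was -0.19, against 0.23 for all genes. Against 6 h, 4 of the 18 were lower, with 1 to 8 called over the other settings. For glutathione, Gclc, the limiting enzyme of its synthesis, rose in tbGFP-negative cells at 6 h from 103 ± 6.06 to 393 ± 15.3 CPM (1.94 ± 0.32, adjusted p = 0.00284) and was back at 109 ± 1.41 CPM at 24 h. Gclc was the 1 call among the 8 glutathione genes tested at 6 h, and 0 to 1 were called over the other settings. Chac1, which breaks glutathione down, was called lower at that 6 h point, with the limits given above. A link between the 2 was not tested. Of the 8 glutathione genes tested, 0 were called at 24 h against 0 h by edgeR, 2 had an unadjusted p under 0.05 and DESeq2 called 1.

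The last 2 lists hold kinases, phosphatases and subunits around eIF2alpha, and folding genes of the endoplasmic reticulum under XBP1 and ATF6. In tbGFP-negative cells at 6 h against 0 h, 2 of 11 of the former rose, led by Eif2ak3, the kinase PERK of the endoplasmic reticulum, from 29.1 ± 10.5 to 89.7 ± 0.184 CPM (log2 fold change 1.65 ± 0.27, adjusted p = 0.00246). Of 16 folding genes 4 rose, led by Dnajb9, from 25.8 ± 1.10 to 80.8 ± 23.4 CPM (1.64 ± 0.25, adjusted p = 0.00171). For each list 0 to 7 genes were called there over the other settings, and DESeq2 called 1 gene of each lower. Xbp1 itself, of the folding list, was higher at 24 h than at 6 h, at 123 ± 1.96 against 56.0 ± 3.61 CPM (1.13 ± 0.19, adjusted p = 0.00189). Dnajb9 also rose in tbGFP-positive cells, from 156 ± 49.9 to 367 ± 27.4 CPM (1.23 ± 0.24, adjusted p = 0.0101). At 24 h against 0 h, 0 of either list were called in tbGFP-negative cells by edgeR. There 2 genes of each list had an unadjusted p under 0.05, and DESeq2 called 1 of each.

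**Figure D4:**
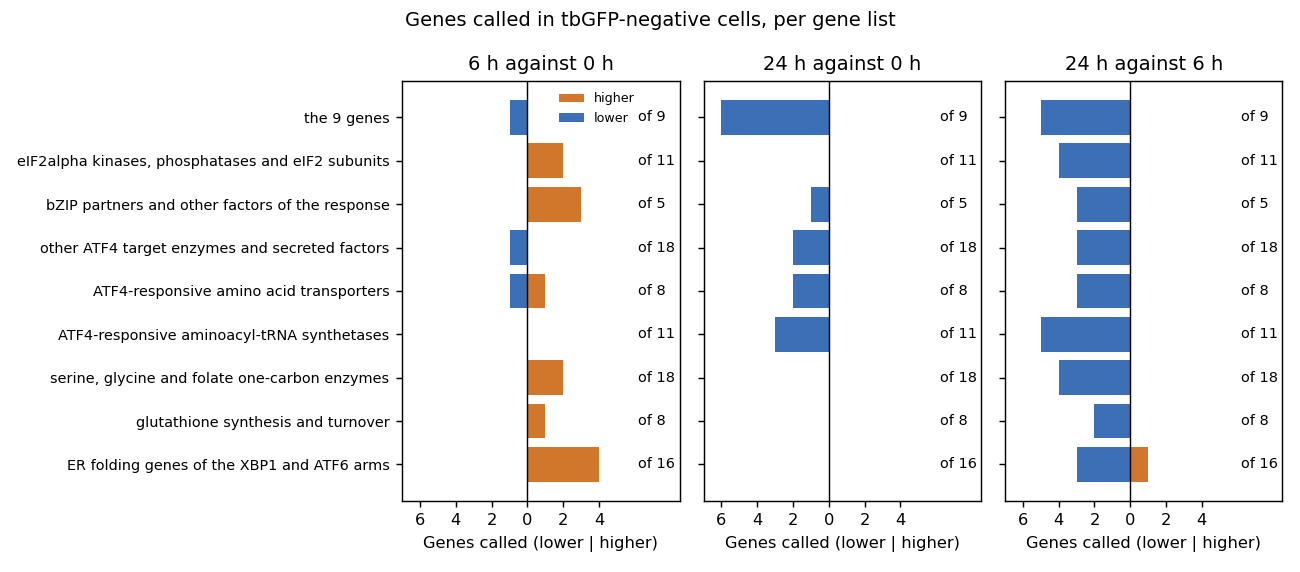
Number of genes called lower (bars to the left) and higher (bars to the right) in tbGFP-negative cells for the 9 genes and 8 lists of the pathway, with the number tested at the right of each bar, in 3 comparisons of time in sorbitol. Against 0 h the 9 genes have 6 lower at 24 h, and the lists around eIF2alpha, one-carbon enzymes, glutathione and folding genes have 0.

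The pattern of each gene over the 12 libraries was set beside the 7393 tested genes with a mean count of at least 50, by Pearson's r of log2 CPM. The libraries share groups and depth, so these values describe likeness only. Nearest to Mthfd2 were Gars (r = 0.971), Scd2 (0.963) and Gpc3 (0.961), and nearest to Psat1 were Tex14 (0.963), Gm8129 (0.96) and Yars (0.956). Gars and Yars are 2 of the synthetases that fell at 24 h. Phgdh was nearest to Gfpt2 (0.963), Parp1 (0.953) and Clic4 (0.94). Chac1 was nearest to Nup214 (0.941), Nup188 (0.934) and Ago2 (0.928), and Trib3 to Eif3b (0.933), Adgrl1 (0.933) and Tenm4 (0.915). Slc7a11 was nearest to Cluap1 (0.948), Platr26 (0.936) and Eprn (0.907). For the sparse genes the nearest were Rpl3-ps2 (0.949), Setd4 (0.936) and Actr10 (0.93) for Ddit3, Mbtd1 (0.902), Trrap (0.895) and Rpain (0.894) for Atf4, and for Asns they included Gabpb2 (0.873) and Kdm3b (0.85). In sparse counts these say little.

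Among the 9 genes themselves, those of serine and folate metabolism had r = 0.88 between Phgdh and Mthfd2, 0.87 between Psat1 and Mthfd2 and 0.79 between Phgdh and Psat1 over the same 12 libraries. Slc7a11 and Mthfd2 reached 0.86, and Trib3 and Chac1 0.83. The summed counts of Atf4, mostly on its retained-intron transcript, had r from -0.34 (Chac1) to -0.04 (Trib3) with the other 8, at 245 counts in all.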

How the data were processed

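RNA was measured in 12 libraries of sorted mouse embryonic stem cells, in 6 groups of 2 taken from the labels. What the authors deposited, per the file headers, is a raw count for each Ensembl transcript. The kit for total RNA was a stranded one, per the labels' protocols. FastQC, HISAT2, featureCounts, DESeq2 and mm10 are named in the submitters' processing notes, without versions, and the handling of strand and shared reads is not given in the sources used here.

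The 142446 transcripts were summed per gene with GENCODE M21 (GRCm38). Matches were found for 141536. The remaining 910, which took 0.0606% to 0.0903% of counts, were left out. The files hold transcript counts and not the gene counts the design assumed. Ddit3 stands for the 1 of its 2 annotated gene identifiers that had counts. Near-identical copies elsewhere in the genome were not checked.

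A gene needed 10 counts or more in 2 or more libraries to be tested, with edgeR 4.0.16 (TMM, robust quasi-likelihood F test, 1 mean per group, all 12 libraries, Benjamini-Hochberg over 19384 genes in each comparison, threshold 0.05) in R 4.3.3. The common dispersion was 0.208, a coefficient of variation of 45.6%. The SE is the absolute log2 fold change divided by the square root of F. The steps were tested on simulated data. Log2 CPM for likeness used a prior count of 2. Fold changes are given for every called comparison of the 9 genes and for some of those that did not pass. Alternatives were other scalings, DESeq2 1.42.0, no filter, a minimum of 30 counts, fewer libraries, a replicate block, coding transcripts only and leaving out each library.

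The genes and lists were chosen with earlier results of these data known. The rule for named genes took all 9 genes, the called gene of each list with the greatest change in each direction, and the 3 genes nearest in pattern to each of the 9. Of these, 2 are not reported here, and some list genes go unnamed in the text. The symbols Gcn1 and Mars1 were not matched in the annotation. Bounds use a floor of 3 counts over the group.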

Additional observations from a re-analysis of the deposited data

How the results depend on the processing

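The 9 genes gave 17 called values, recomputed 354 times in all. In these, 354 kept their direction, 310 kept the call and 44 lost it, and 0 reversed. Trib3, Chac1, Phgdh, Psat1 and Mthfd2 at 24 h against 0 h, Phgdh, Psat1 and Mthfd2 at 24 h against 6 h (tbGFP-negative cells) and Phgdh between fractions at 24 h kept the call in all 21 alternatives each. The causes of lost calls were not tested.

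Between fractions at 0 h, the 0 of 9 called became 2 with upper-quartile factors, library totals or no tbGFP-positive 6 h libraries, and 1 with no filter or only the groups compared. At 6 h the 0 became 2 with upper-quartile factors and 1 with no filter. At 24 h the 1 became 2 with DESeq2, a minimum of 30 counts or only the groups compared, and 3 with no filter or no tbGFP-positive 6 h libraries. For tbGFP-negative cells at 6 h against 0 h the 1 became 2 with only the groups compared. In tbGFP-positive cells DESeq2 gave 1 for 6 h against 0 h, 4 for 24 h against 0 h and 6 for 24 h against 6 h. There, no filter or no 6 h libraries gave 4 for 24 h against 0 h, and only the groups compared gave 0 for 24 h against 6 h. For the change of the gap by 24 h DESeq2 gave 1, and no filter, only the groups compared or no tbGFP-positive 6 h libraries gave 2.

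Leaving out 1 library at a time gave 0 to 2 calls between fractions at 0 h, 0 to 3 at 6 h and 1 to 3 at 24 h. It gave 0 to 1, 5 to 6 and 3 to 7 for 6 against 0 h, 24 against 0 h and 24 against 6 h in tbGFP-negative cells, and 0 to 3, 0 to 4 and 0 to 4 in tbGFP-positive cells. The change of the gap gave 0 to 2 at either time. The promoter count of 3 was 2 with TGATGCAA and 4 with TGNNGCAA. Nothing says whether replicates of the same number belong together across groups. Differences between replicates correlated at -0.04 to 0.03 across groups, over all genes tested, sparse ones included. These values cannot exclude pairing. The replicate block gave 5 calls against 6 for tbGFP-negative cells at 24 h against 0 h and left the other counts of the 9 as they were.

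Over all genes, counts of calls moved widely. Between fractions they were 1378 (689 to 2489) at 0 h, 2354 (609 to 5350) at 6 h and 1059 (488 to 2257) at 24 h. In the order of comparisons above they were 860 (152 to 3944), 773 (270 to 3247) and 1534 (557 to 6327) in tbGFP-negative cells, 1143 (4 to 4008), 107 (9 to 928) and 1709 (0 to 4719) in tbGFP-positive cells, and 33 (9 to 2167) and 188 (75 to 326) for the change of the gap. Scaling moved the balance of higher and lower calls. For tbGFP-negative cells it was 523 and 250 at 24 h against 0 h and 412 and 408 with upper-quartile factors, 701 and 833 at 24 h against 6 h and 1392 and 308 with library totals, and 625 and 235 at 6 h against 0 h and 339 and 571 with library totals. Between fractions it was 1291 and 87 at 0 h and 1078 and 812 with library totals, 1342 and 1012 at 6 h and 1182 and 2454 with upper-quartile factors, and 1037 and 22 at 24 h and 884 and 424 with library totals. The median log2 fold change of all genes shifted with it, from 0.16 to 0.56 for 24 h against 6 h in tbGFP-negative cells and from 0 to -0.41 between fractions at 0 h with library totals. Depth limits Atf4, Asns and Slc7a11 most, where 3 counts correspond to 0.31 to 1.12 CPM.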
